A study of Mus musculus with 8 samples.

Results

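The 8 genes described here serve renal ammonia production and ammonia transport: Slc38a3, Glud1, Pck1, Got1, Got2, Glul, Rhbg and Rhcg. They were chosen by symbol, with earlier results of these data known, as were the gene lists used below. Shares of all genes printed beside their counts are therefore description, not a test of the lists. Each of the 8 genes was read from the probe set that carried exactly 1 gene symbol and had the highest mean over all arrays. All 8 were measured, among 19938 genes in all. The values are log2 expression values from 1-colour Affymetrix arrays hybridised with total RNA of dissected kidney cortex. A difference is SPAK KO minus WT on that log2 scale, and "called" means a p under 0.05 from limma's test on the 8 arrays after Benjamini-Hochberg adjustment over all genes.

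The study set 4 mice labelled as lacking SPAK, the kinase encoded by Stk39 that phosphorylates the thiazide-sensitive NaCl cotransporter, against 4 wild-type littermates, called WT. By its stated design it looked for genes that might together limit salt loss. All mice were male C57Bl6J animals 10 weeks old, with free access to water and to feed of 0.32% NaCl and 1% KCl. Where in Stk39 the disruption lies, and whether it was limited to a tissue, is not in the labels.

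The proximal tubule takes up glutamine from blood and filtrate and strips it of nitrogen in mitochondria, which yields ammonium for the urine and, from the carbon skeleton, new bicarbonate and glucose. Metabolic acidosis and potassium depletion are known to raise this production, and glutamine synthetase runs the reaction in the other direction by fixing ammonia onto glutamate. Downstream, the Rhesus glycoproteins Rhbg and Rhcg let ammonia cross the membranes of connecting tubule and collecting duct cells, including intercalated cells, on its way into the urine.

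Stk39 itself ranged from 6.79 to 7.21 on the SPAK KO arrays and from 8.11 to 8.60 on the WT arrays, a difference of −1.38 ± 0.11 (SE; adjusted p = 5.8e-04). The array medians lay between 6.09 and 6.19. Arrays were first compared in pairs, using 6297 genes whose mean exceeded 8. In the 6 pairs of SPAK KO arrays, 1 to 10 of these genes differed by more than 0.4, and WT 2 and WT 3 differed in 3. The 5 other WT pairs differed in 119 to 228 genes. WT 2 and WT 3 were therefore counted as 1 sample in WT means ± SD (n = 3), and SPAK KO arrays are described by their range, without an SD between animals. The labels name 8 mice, but within SPAK KO the spread behind the p-values was about as small as that between WT 2 and WT 3. When arrays that agree were counted once, which leaves 1 SPAK KO sample assumed to vary like WT, limma called 0 genes of 19938 and 618 had an unadjusted p under 0.05. That fit gives sizes, not a test of genotype. Cortex is a mixture, so a change in the share of a cell type and a change in RNA per cell cannot be told apart.

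Of the 8 ammonia genes, 2 were called, Slc38a3 and Rhbg, both higher, beside 2.08% of all genes called in either direction, 1.39% called higher and 0.682% called lower. The other 6 did not pass. With limma, 0 members were called lower, where Got1 was the 1 member below 0 with an unadjusted p under 0.05. At that unadjusted threshold, 5 of the 8 genes were higher and 1 lower, beside 19.1% of all genes in either direction. The groups did not overlap for 5 of the 8, with SPAK KO above WT for Slc38a3, Rhbg, Rhcg and Pck1 and below it for Got1. Over all genes the groups did not overlap for 12.6%, 6.9% with SPAK KO above and 5.71% with it below. The median difference of the 8 genes was 0.16, and that of all genes was −0.01.

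**Figure D1:**
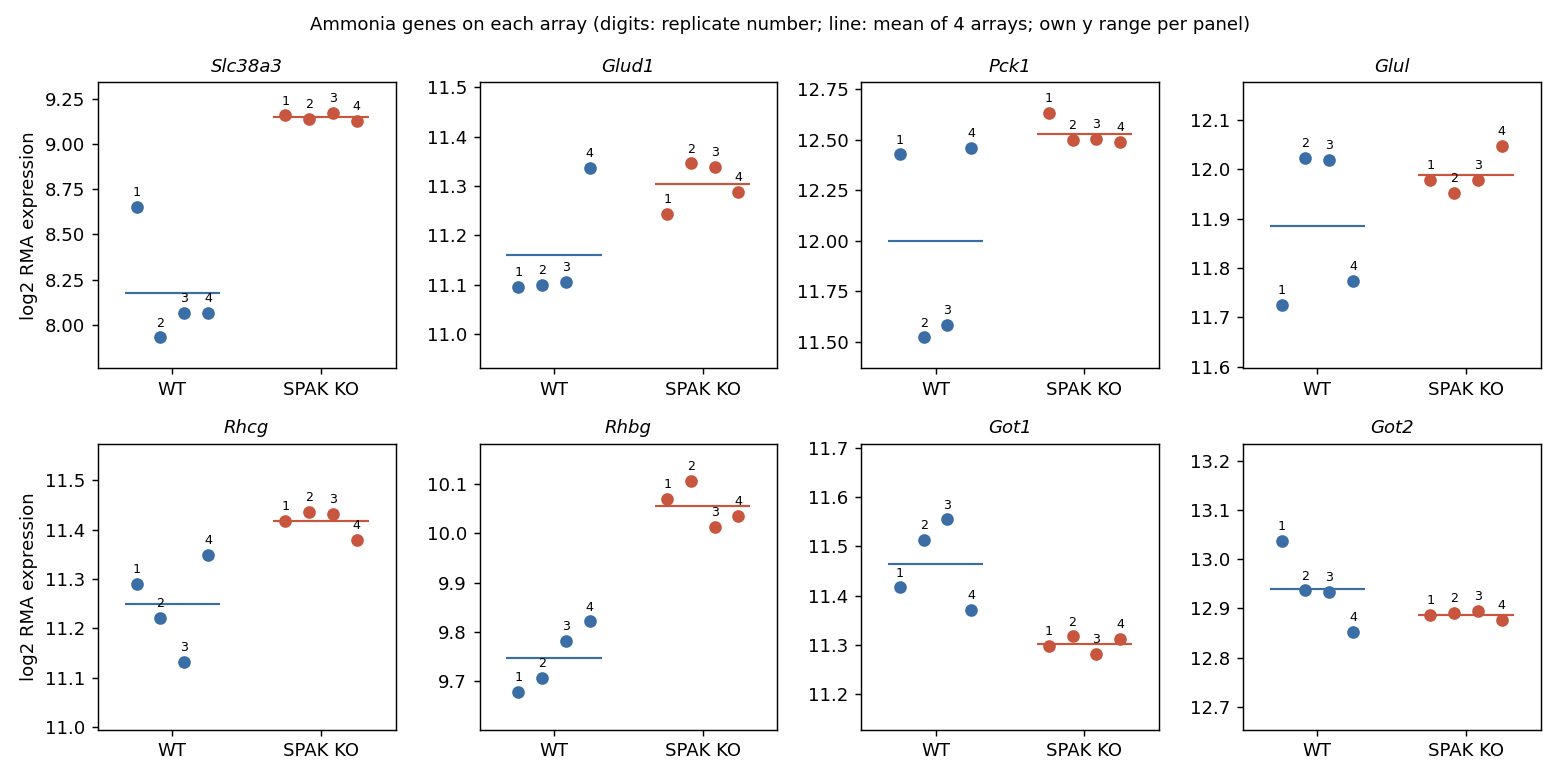
Log2 expression of each of the 8 ammonia genes on the 4 WT arrays (blue) and the 4 SPAK KO arrays (red); digits are replicate numbers, lines are means of 4 arrays, and each panel has its own vertical range. Slc38a3 lies between 9.13 and 9.17 on the SPAK KO arrays, above all WT arrays, whereas Glul, Glud1 and Got2 overlap.

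Slc38a3 (probe set 10596718) encodes SNAT3, a sodium-coupled transporter that carries glutamine across the basolateral membrane of proximal tubule cells and that acidosis is known to induce. WT arrays 1 to 4 gave log2 values of 8.65, 7.93, 8.06 and 8.06, and SPAK KO arrays 1 to 4 gave 9.16, 9.14, 9.17 and 9.13. Values of the other genes follow in the same order. Every SPAK KO array lay above every WT array, and WT 1 stood nearest to them. WT averaged 8.24 ± 0.36 (SD, n = 3). The difference was 0.97 ± 0.13 (SE, 8 arrays), or 1.96-fold with a 95% interval of 1.60 to 2.40, and was called (adjusted p = 0.00595). All 8 fits with 1 array removed called it, with differences from 0.89 without WT 2 to 1.13 without WT 1. With WT 2 and WT 3 averaged it was 0.91 ± 0.14 (SE; adjusted p = 0.0185). Counting all agreeing arrays once also gave 0.91, with an SE of 0.25, and no call.

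Rhbg (probe set 10499329) encodes the basolateral ammonia channel of connecting tubule and collecting duct cells. It read 9.68, 9.71, 9.78 and 9.82 in WT, against 10.07, 10.11, 10.01 and 10.04 in SPAK KO. The groups did not overlap, and the WT arrays spanned only 0.14, a narrower range than that of most genes. The difference was 0.31 ± 0.05 (SE, 8 arrays), or 1.24-fold with a 95% interval of 1.14 to 1.34 (adjusted p = 0.0152), from 9.75 ± 0.07 in WT (SD, n = 3). The call ended without WT 2 (adjusted p = 0.0525), SPAK KO 1 (0.0579), SPAK KO 2 (0.0547) or SPAK KO 4 (0.05005), while the difference stayed between 0.29 and 0.33. It was also lost with arrays that agree counted once, at 0.31 with an SE of 0.11.

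Rhcg (probe set 10564762), the related channel that is also found in the apical membrane, showed the same order of groups with a smaller separation. Its values were 11.29, 11.22, 11.13 and 11.35 in WT, against 11.42, 11.44, 11.43 and 11.38 in SPAK KO. The lowest SPAK KO array lay just above WT 4, the highest WT array. The difference of 0.17 ± 0.06 (SE; 95% interval 0.04 to 0.29) did not pass (adjusted p = 0.146). Among the alternatives run, it passed only when arrays were centred on their median (0.23, adjusted p = 0.0456). Whether Rhbg and Rhcg differed in their response was not tested.

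Most markers of intercalated cells, and the mean of the list, were higher in SPAK KO as Rhbg was. Of 12 such genes, 7 were called higher and 0 lower, beside 1.39% of all genes called higher, and 10 had an unadjusted p under 0.05. Atp6v1g3, Atp6v1c2, Atp6v0d2 and Atp6v1b1, subunits of the proton pump, gave 0.52 ± 0.07, 0.44 ± 0.07, 0.36 ± 0.05 and 0.39 ± 0.07 (SE). Oxgr1, the 2-oxoglutarate receptor of type B cells, gave 0.58 ± 0.06, and Slc26a4, their chloride/bicarbonate exchanger pendrin, gave 0.65 ± 0.08. Atp6v1c2 passed in 5 and Atp6v1b1 in 2 of the 8 fits without 1 array, and the other 4 of these passed in each. The mean log2 value of the 12 markers was 9.24 to 9.44 on the WT arrays and 9.67 to 9.71 on the SPAK KO arrays, so it did not overlap between groups, as Rhbg did not. Slc4a1, the chloride/bicarbonate exchanger of type A cells, and Atp6v0a4, another pump subunit, gave −0.15 ± 0.11 and −0.03 ± 0.04 (SE), with groups that overlapped; both were chosen after their values were seen. On the WT arrays the marker mean and Rhbg were lowest on WT 1 and highest on WT 4, as were the means of the thick ascending limb, principal cell and acid-base lists. Such separation was common among the list means. The thick ascending limb, distal tubule, proximal tubule, liver and fat means did not overlap between groups either. The same held for the ammonia, acid-base, fasting, glucocorticoid and cAMP, and 2-oxoglutarate to glucose lists. Means of the glutamine entry, glutamine enzyme, other ammonia source, ammonia transport, principal cell and adrenal lists overlapped. The part of these cells in the Rhbg result was not tested. RMA values come with no detection call, so no marker can be called absent.

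Glud1 (probe set 10414093) encodes mitochondrial glutamate dehydrogenase, which releases the second nitrogen of glutamine as ammonium and leaves 2-oxoglutarate. Its values were 11.09, 11.10, 11.10 and 11.34 in WT, against 11.24, 11.35, 11.34 and 11.29 in SPAK KO. WT 4 lay within the SPAK KO range, and the other 3 WT arrays lay close together below it. The difference was 0.15 ± 0.06 (SE; 95% interval 0.002 to 0.29) and did not pass (adjusted p = 0.257). Without WT 4 it was 0.20, and it did not pass there either (adjusted p = 0.0637).

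Got1 and Got2 encode the cytosolic and the mitochondrial aspartate aminotransferase, which exchange amino groups between glutamate and aspartate and belong to the malate-aspartate shuttle. Got1 (probe set 10467842) read 11.42, 11.51, 11.55 and 11.37 in WT, against 11.30, 11.32, 11.28 and 11.31 in SPAK KO. All SPAK KO arrays lay below all WT arrays, by 0.05 at the nearest. The difference of −0.16 ± 0.05 (SE; 95% interval −0.28 to −0.04) did not pass (adjusted p = 0.144). A fit with a variance trend and robust moderation called it at the margin (adjusted p = 0.0494).

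Got2 read 13.04, 12.94, 12.93 and 12.85 in WT, against a range of 12.88 to 12.89 in SPAK KO. The SPAK KO arrays lay inside the WT range. The difference was −0.05 ± 0.05 (SE; 95% interval −0.17 to 0.06; adjusted p = 0.607), and its sign turned with arrays centred on their median. The probe set used (10535025) may not sit at the gene: in the order of probe set numbers it lies between Gpc2 and 1700123K08Rik, the genes that flank the pseudogene Got2-ps1 in the RefSeq table of GRCm38.p6. A dimmer Got2 probe set (10580969), numbered next to Slc38a7, a true neighbour of Got2, gave −0.04 ± 0.05 (SE). Both carry the same transcript accessions, so transcripts of the gene and of its copy cannot be told apart in these values.

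Pck1 (probe set 10479047) encodes cytosolic phosphoenolpyruvate carboxykinase, which turns oxaloacetate made from the glutamine skeleton into a precursor of glucose. It read 12.43, 11.52, 11.58 and 12.46 in WT, against 12.63, 12.50, 12.50 and 12.49 in SPAK KO. WT 1 and WT 4 lay just below the SPAK KO arrays, and WT 2 and WT 3, which agree so closely that they were counted as 1 sample, lay well below those. WT averaged 12.15 ± 0.51 (SD, n = 3). The difference was 0.53 ± 0.20 (SE; 95% interval 0.08 to 0.98) and did not pass (adjusted p = 0.197). It was 0.37 without WT 2 and 0.69 without WT 4, and 0.38 with WT 2 and WT 3 averaged. The order of the groups, with all SPAK KO arrays above WT, therefore rested on a gap of 0.03 between SPAK KO 4 and WT 4.

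The Pck1 promoter is textbook ground for hormonal control, with a cAMP response element of the form TTACGTCA shortly before the start. The stretch of 250 bases before the RefSeq start, chr2:173152823-173153072 on the plus strand of GRCm38.p6, is shown for Pck1 alone. Pck1 was the 1 member whose searched promoter held this form. The capitals mark TTACGTCA, at bases 93 to 86 before the start.

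Pck1: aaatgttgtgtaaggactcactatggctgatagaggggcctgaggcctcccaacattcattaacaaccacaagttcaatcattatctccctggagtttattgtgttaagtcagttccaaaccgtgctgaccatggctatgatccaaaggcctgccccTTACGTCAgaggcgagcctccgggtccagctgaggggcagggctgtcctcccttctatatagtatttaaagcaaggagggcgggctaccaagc

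RefSeq promoters of 6 of the 8 genes were searched on both strands, from 250 bases before to 50 after the start. TTACGTCA occurred in that of Pck1 alone among the 6, and in 0.499% of 32851 promoters. Since this form was already known from Pck1, that match was fixed in advance. The palindrome TGACGTCA (1.79% of all promoters), the E-box CACGTG (7.15%), the full palindromic glucocorticoid element and the HNF1 element (0.00913% each) had 0 matches among the 6. These are matches of letters, not measured binding.

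Glul encodes glutamine synthetase, which consumes ammonia and is known to fall in the proximal tubule in acidosis. It read 11.73, 12.02, 12.02 and 11.77 in WT, against 11.98, 11.95, 11.98 and 12.05 in SPAK KO (probe set 10374453). SPAK KO sat near WT 2 and WT 3, and above WT 1 and WT 4. The difference was 0.10 ± 0.08 (SE; 95% interval −0.06 to 0.27; adjusted p = 0.482). This probe set is numbered between C1d and Spred2, which are not neighbours of Glul in RefSeq. The dimmer Glul probe set (10350753), numbered between Teddm1a and Zfp648 beside the gene, read 10.57, 11.00, 10.99 and 10.84 in WT, against a range of 10.91 to 10.97 in SPAK KO, with a difference of 0.10 ± 0.09 (SE).

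**Figure D2:**
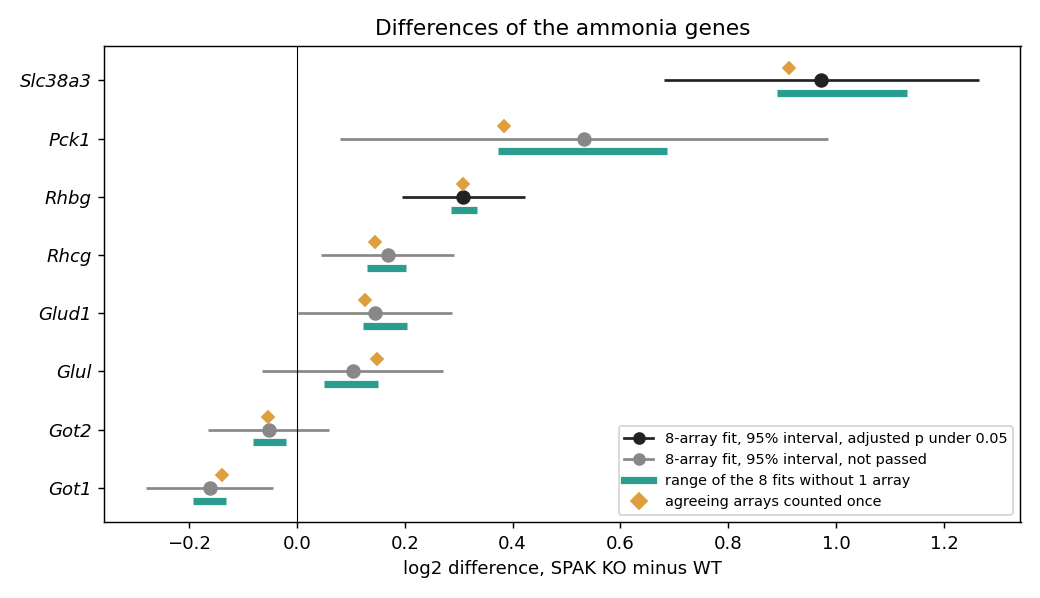
Log2 difference of each ammonia gene (SPAK KO minus WT, horizontal axis) with its 95% interval from the 8-array limma fit, the range of the 8 fits with 1 array removed (green bars) and the value with agreeing arrays counted once (diamonds). Slc38a3 at 0.97 and Rhbg at 0.31 are the 2 called genes (black); Got1 and Got2 lie below 0.

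The genes differed in how much they varied among WT arrays. Pck1 spanned 0.94 and Slc38a3 0.72 on the log2 scale, wider than 99.6% and 98.8% of all genes. Glul spanned 0.30, Glud1 0.24, Rhcg 0.22, Got1 and Got2 0.18 each, where the median gene spanned 0.22. On the SPAK KO arrays the ranges were 0.02 to 0.14, and the median over all genes was 0.17. Within WT the genes did not move as a block: Pck1 was high and Glul and Got1 low on WT 1 and WT 4 compared with WT 2 and WT 3, whereas Slc38a3 was high on WT 1 alone and Glud1 on WT 4 alone.

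**Figure D3:**
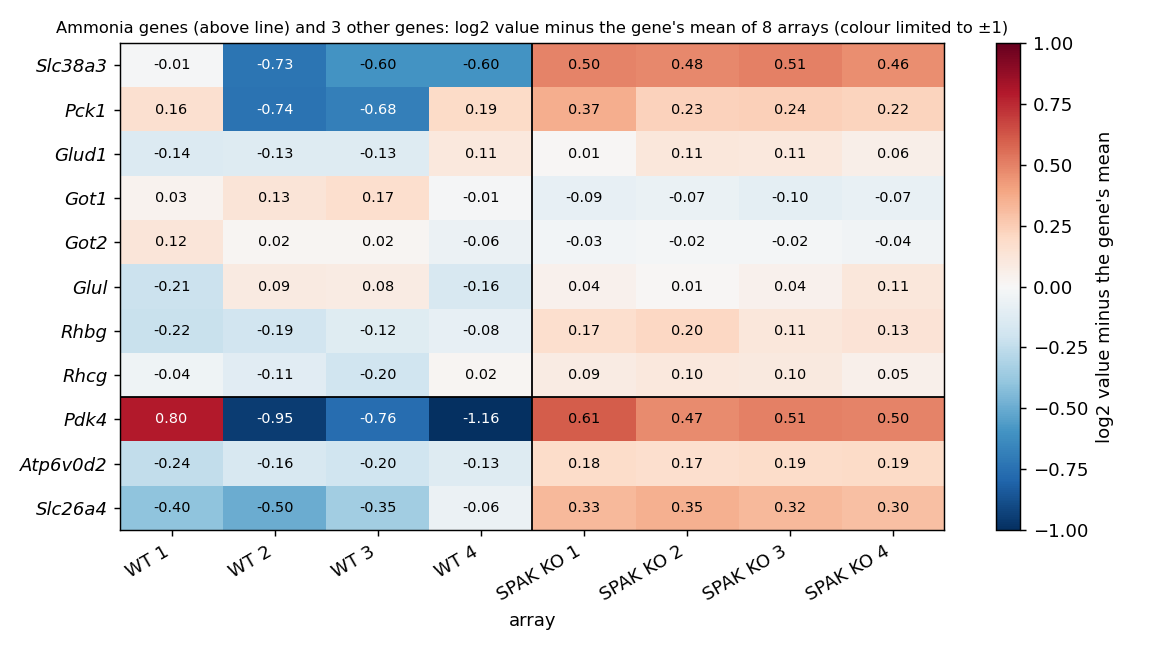
Log2 value minus the gene's mean of 8 arrays for the 8 ammonia genes (above the horizontal line) and for Pdk4, Atp6v0d2 and Slc26a4, with arrays in columns and WT left of the vertical line; red is above the mean, blue below, and colours are limited to ±1. WT 1 is close to the SPAK KO arrays for Pdk4 and Pck1, and WT 4 for Pck1 but not for Pdk4.

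Some genes known to respond to fasting, Pdk4 among them, also varied widely on the WT arrays. Others of that list, Plin2, Cpt1a, Acot1, Cyp4a10, Ppara and Fgf21, spanned less there than the median gene. Pdk4, an inhibitor of pyruvate oxidation, read 8.87, 7.13, 7.32 and 6.92 in WT, against a range of 8.55 to 8.69 in SPAK KO, and its difference of 1.04 ± 0.35 (SE) did not pass (adjusted p = 0.147). Pdk4 was thus high on WT 1, as Slc38a3 was, but low on WT 4, where Pck1 was high. Of 11 fasting genes measured, 2 were called higher and 0 lower, beside 1.39% and 0.682% of all genes. With an unadjusted p under 0.05, 7 were higher and 1 lower, beside 19.1% of all genes in either direction. The called genes were Txnip, a glucose-responsive inhibitor of thioredoxin, at 0.66 ± 0.12, and Ppara, the fatty-acid-sensing nuclear receptor, at 0.33 ± 0.05 (SE). Ppara passed in each of the 8 fits without 1 array and Txnip in 2. The mean of the list was 8.81 to 9.28 on the WT arrays and 9.33 to 9.36 on the SPAK KO arrays, with a median difference of 0.25.

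Of 12 genes that respond to glucocorticoid or cAMP, both known inducers of Pck1, 4 were called higher and 0 lower. Over all genes, 1.39% were called higher and 0.682% lower. With an unadjusted p under 0.05, 7 of the 12 were higher and 1 lower, beside 19.1% of all genes in either direction. Dusp1, a phosphatase of MAP kinases, gave 0.67 ± 0.08, the kinase gene Sgk1 0.50 ± 0.09, the clock gene Per1 0.93 ± 0.18 and the nuclear receptor gene Nr4a1 0.66 ± 0.13 (SE), and they passed in 8, 4, 3 and 2 of the 8 fits without 1 array. Fkbp5, a glucocorticoid-induced chaperone of the receptor, and Tat, tyrosine aminotransferase, named after their values were seen, gave −0.14 ± 0.06 each (SE; adjusted p = 0.283 and 0.248), Fkbp5 with all SPAK KO arrays below WT. The mean of these 12 genes was 7.56 to 7.77 on the WT arrays and 7.95 to 8.04 on the SPAK KO arrays. Their order on the WT arrays differed from that of Pck1, with WT 4 and WT 1 lowest. The part of fasting, glucocorticoid or cAMP signals in the Slc38a3 and Pck1 values was not tested.

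Among 103 other measured genes of the pathway lists, those of fasting and hormones included, 10 were called higher and 0 lower. The count was 3, 4, 3 and 3 without SPAK KO 1, 2, 3 and 4, and 4 or 5 without WT 2 or WT 3. At an unadjusted p under 0.05, 27 were higher and 6 lower. Over all genes, 1.39% were called higher, 0.682% were called lower and 19.1% had an unadjusted p under 0.05. The median difference of the 103 genes was 0.04.

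Genes that bring glutamine and glutamate into cells or mitochondria gave 1 called gene of 12 measured, beside 2.08% of all genes called. Slc3a1, the heavy chain of a cystine and dibasic amino acid transporter, was higher by 0.28 ± 0.05 (SE; adjusted p = 0.024), with 11.95 to 12.15 on the WT arrays and 12.33 to 12.36 on the SPAK KO arrays, and passed in 2 of the 8 fits without 1 array. The median of that list was 0.0058. Of 13 enzymes of glutamine and glutamate, limma called 0, and 4 had an unadjusted p under 0.05 (list median 0.02). Gpt, an alanine aminotransferase, and Gad1, a glutamate decarboxylase, had the smallest p, at 0.32 ± 0.08 and −0.15 ± 0.05 (SE; adjusted p = 0.0834 and 0.134).

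The route from 2-oxoglutarate to glucose had 0 called genes of 20 with limma, and 2 had an unadjusted p under 0.05 (list median 0.03). They were G6pc, the glucose-6-phosphatase that releases glucose, at 0.23 ± 0.05 (SE; adjusted p = 0.0507), and Sdhb, a subunit of succinate dehydrogenase, at 0.16 ± 0.05 (adjusted p = 0.146). G6pc read 12.89, 13.05, 13.05 and 13.05 in WT, against a range of 13.22 to 13.27 in SPAK KO, without overlap. Of 10 genes of other ammonia sources, the purine nucleotide cycle and glycine cleavage, limma called 0 and 1 had an unadjusted p under 0.05 (list median 0.03). Amt, the aminomethyltransferase of glycine cleavage, gave 0.22 ± 0.06 and Ampd1, an AMP deaminase, −0.11 ± 0.06 (SE; adjusted p = 0.096 and 0.348).

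Among 10 other genes for proteins that can carry ammonium or ammonia or drive its transport, 1 was called (list median 0.02). Atp4a, the catalytic subunit of a proton-potassium pump, was higher by 0.35 ± 0.07 (SE; adjusted p = 0.0439) and passed in 1 of the 8 fits without 1 array. Slc9a3, the apical sodium-proton exchanger of the proximal tubule that can secrete ammonium in place of a proton, read 11.21, 10.99, 10.97 and 10.94 in WT, against a range of 10.90 to 10.97 in SPAK KO. Its difference of −0.10 ± 0.07 (SE; 95% interval −0.24 to 0.05) did not pass (adjusted p = 0.45). Of 15 acid-base partners, 2 were called, Slc26a4 and Atp6v1b1 as given above, and the median of the list was −0.02. Over all genes, 2.08% were called.

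**Figure D4:**
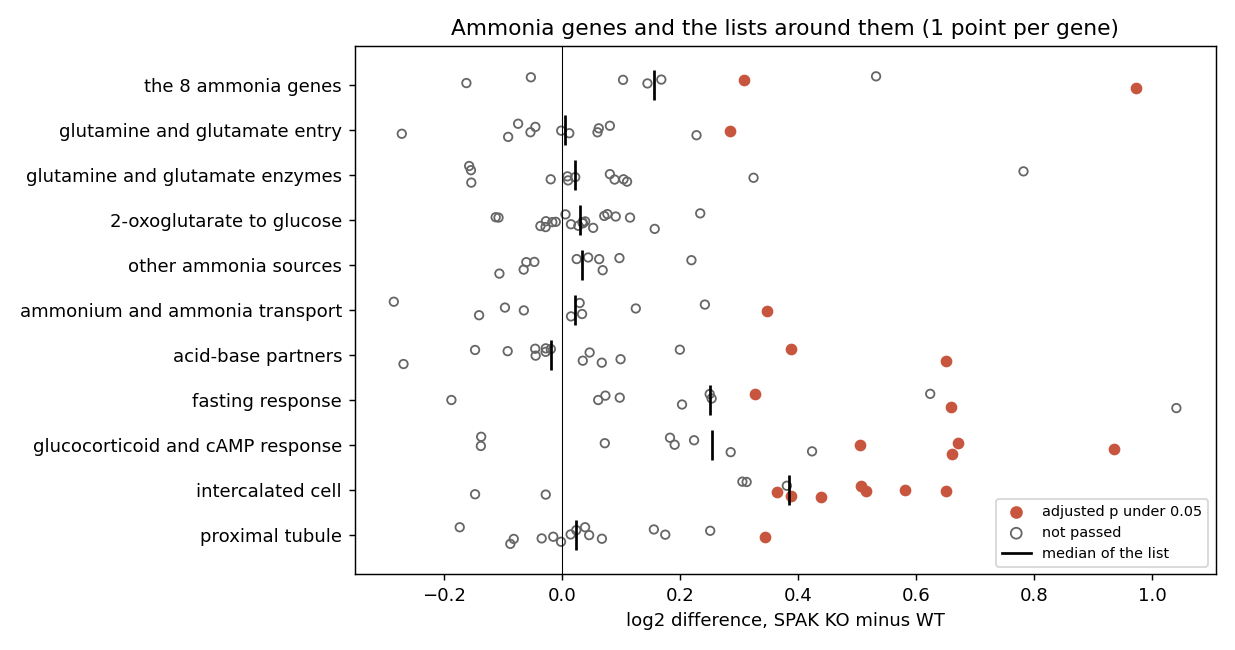
Log2 difference (SPAK KO minus WT) of every measured gene in the 8 ammonia genes, the pathway lists and 2 cell type lists, 1 point per gene, filled where limma's adjusted p was under 0.05; black ticks are list medians. The median is 0.16 for the ammonia genes, 0.38 for intercalated cell markers and 0.02 for proximal tubule markers.

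Proximal tubule markers, which mark the cells that hold Slc38a3, Pck1 and most ammonia production, gave 1 called gene of 15, the water channel gene Aqp1 at 0.34 ± 0.06 (SE; passed in 5 of the 8 fits without 1 array). The list median was 0.02, and 5 had an unadjusted p under 0.05, 4 higher and 1 lower. Over all genes, 2.08% were called and 19.1% had an unadjusted p under 0.05. The groups did not overlap for 6 of the 15, 3 with SPAK KO above and 3 with it below. Those below were Slc5a2 at −0.17 ± 0.07, Gatm at −0.09 ± 0.04 and Hnf4a at −0.08 ± 0.04 (SE), named after their values were seen. The mean of the list was 12.61 to 12.67 on the WT arrays and 12.69 on each SPAK KO array. Lrp2, the endocytic receptor megalin, differed by 0.05 ± 0.04 (SE), with groups that overlapped. The liver, another tissue that expresses Glul, Pck1 and Slc38a3, had 0 of 6 markers called by limma and 3 with an unadjusted p under 0.05. The mean of that list was 7.42 to 7.48 on the WT arrays and 7.61 to 7.68 on the SPAK KO arrays, and the list median was 0.12. Alb and Ttr gave 0.55 ± 0.13 and 0.46 ± 0.13 (SE; adjusted p = 0.0668 and 0.102), Apoa2 and Apoa1 0.14 ± 0.05 and 0.09 ± 0.07, and Fgb and Ambp, at −0.02 ± 0.11 and −0.03 ± 0.10, lay below 0. Its part in the results was not tested.

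Markers of other cell types were measured on the same arrays. Over all genes, 1.39% were called higher, 0.682% were called lower and 19.1% had an unadjusted p under 0.05. Of 7 thick ascending limb genes, 2 were called higher, Cldn16, a paracellular channel protein, at 0.32 ± 0.05 and the calcium-sensing receptor gene Casr at 0.31 ± 0.06 (SE; passed in 8 and 2 of the 8 fits without 1 array). All 7 had differences above 0, 6 with an unadjusted p under 0.05, and the list mean was 9.89 to 9.96 on the WT arrays and 10.13 to 10.17 on the SPAK KO arrays. Of 5 fat markers, 1 was called higher, the adipokine gene Retn at 0.31 ± 0.07 (SE; in 0 of the 8 fits without 1 array), 4 had an unadjusted p under 0.05, and the list mean was 6.06 to 6.21 in WT and 6.31 to 6.35 in SPAK KO. Of 7 genes of the distal convoluted and connecting tubule, the parvalbumin gene Pvalb (−1.30 ± 0.09) and the magnesium channel gene Trpm6 (−0.63 ± 0.10; both in 8 of the 8 fits) were called lower and S100g, a calcium-binding protein gene, higher (0.35 ± 0.06; in 3 of the 8 fits), 6 had an unadjusted p under 0.05, and the list mean was 10.27 to 10.40 in WT and 10.10 to 10.12 in SPAK KO. These 3 list means did not overlap between groups. Of 8 principal cell genes, 1 was called higher, the sodium channel subunit gene Scnn1b (0.28 ± 0.05; in 2 of the 8 fits), and 2 lower, the water channel genes Aqp4 (−0.35 ± 0.07) and Aqp2 (−0.29 ± 0.06; each in 1 of the 8 fits), and 5 had an unadjusted p under 0.05. The list mean overlapped, with 8.45 to 8.56 in WT and 8.51 to 8.57 in SPAK KO. Of 5 adrenal genes limma called 0 and 1 had an unadjusted p under 0.05, with the steroid hydroxylase gene Cyp11b1 at −0.26 ± 0.08 and the aldosterone synthase gene Cyp11b2 at −0.10 ± 0.10 (SE; adjusted p = 0.121 and 0.628), and the list mean was 4.74 to 4.94 in WT and 4.66 to 4.85 in SPAK KO. Their part in the ammonia gene results was not tested.

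By a fixed measure of likeness, the root mean square distance of mean-centred log2 values over the 8 arrays, the genes nearest to Slc38a3 were Jun (distance 0.11), Slc25a25 (0.11) and Lrmda (0.12). Slc25a25, a mitochondrial carrier for ATP-magnesium and phosphate, read 8.35, 7.38, 7.42 and 7.67 in WT, against a range of 8.61 to 8.81 in SPAK KO, so it too was highest among WT arrays on WT 1. Jun, a transcription factor gene of the immediate early class, read 9.26 on WT 1, 8.60 to 8.77 on the other WT arrays and 9.63 to 9.71 on the SPAK KO arrays. The genes nearest to Rhbg were Zfand1 (distance 0.02), Crtc2 (0.03), a coactivator of CREB, and Ndst4 (0.04), the last a dim probe set at 3.33 to 3.82. Since all 8 arrays of both groups enter the distance, likeness includes the difference between groups.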

How the data were processed

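Total RNA of kidney cortex, 6 µg per sample per the labels, was measured on 8 one-colour arrays, 4 per genotype. The submitters' processing notes name RMA and Affymetrix Expression Console, so the authors' deposited log2 values are background-corrected, normalized between arrays and summarised per probe set. Version, genome build and filters are not given in the sources used here. Of 35556 probe sets, 21789 carried 1 symbol in the platform annotation (1621 several), giving 19938 genes, read from the probe set with the highest mean. The test was limma's (3.58.1, R 4.3.3, with lmFit and eBayes, genotype only, no filter). It was checked on simulated data whose arrays varied independently, so the check does not cover arrays that agree as closely as some here. statmod 1.5.0 served the robust fit. The number of separate RNA samples limits the precision.

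The 8 members and 17 gene lists were chosen with earlier results of these data known. Named were the members, Stk39, Slc9a3, Pdk4, called list genes (at most 6 per list, otherwise the 2 smallest p) and the 3 genes nearest to each called member; others were chosen after their values were seen. Listed genes without a single-symbol probe set are not analysed here. Alternatives were centring, quantile normalization, a filter at a mean of 6, trend and robust moderation, the mean of all probe sets, a replicate block, agreeing arrays averaged, and leaving out each array. Promoters are RefSeq's, GRCm38.p6. Replicate numbers did not pair the arrays.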

Additional observations from a re-analysis of the deposited data

Results flagged for a closer look

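In 2 of the 16 combinations of gene and group tested, 1 array stood apart from the other 3 by Dixon's 95% criterion (the gap to the nearest array over the group's range), which chance gives in about 1 of 20 groups. Glud1 read 11.34 on WT 4, 0.959 of the WT range away from the nearest WT array. WT 2 and WT 3, 2 of those 3 other arrays, differed by 0.0056 and are counted as 1 sample elsewhere. With that pair counted once the group has 3 samples, too few for this criterion. Pck1 read 12.63 on SPAK KO 1, with a gap of 0.883 of the range; that range was 0.14 on the log2 scale, and pairs of SPAK KO arrays differed in 1 to 10 of 6297 genes, beside 3 for WT 2 with WT 3.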

How the results depend on the processing

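Over 16 alternatives, the differences of the 8 ammonia genes kept their direction and their side of the threshold in 118 of 128 values; Slc38a3 and Rhbg lost their calls in 7 (1 and 6), Rhcg and Got1 gained one in 1 each, and Got2 turned to 0.0062 with arrays centred on their median. The 2 members called higher became 1 with the replicate block (Rhbg adjusted p = 0.0754, Slc38a3 0.0213), 0 with agreeing arrays counted once and 1 to 2 in fits without 1 array. The replicate numbers are only a name here: not every array correlated best with its own number. The 0 members called lower became 1 with trend and robust moderation (Got1) and were 0 to 0 without 1 array. The 10 pathway genes called higher became 18 with centring, 16 with trend and robust, 6 with the replicate block, 5 with WT 2 and WT 3 averaged, 0 with agreeing arrays counted once and 3 to 12 without 1 array; the 0 called lower became 1 with quantile normalization, with dim genes left out and with trend and robust, and 0 to 1 without 1 array. Over all genes, 278 higher and 136 lower became 673 and 88 with centring, 462 and 202 without dim genes, 526 and 241 with trend and robust, 129 and 45 with the block and 175 and 78 with WT 2 and WT 3 averaged, and 106 to 407 higher and 50 to 218 lower without 1 array. Fewer samples enter the fits without arrays. Their counts over all genes rose to 407 higher and 218 lower without WT 4 and fell to 106 and 50 without SPAK KO 1. The cause of the changes was not tested for any of the alternatives. RMA values have no stated floor, so how far dim probe sets lie above background is unknown.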

Other observations

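A few more genes of the pathway lists, chosen after their values were seen, did not pass. Bcat1, the cytosolic branched-chain aminotransferase, which makes glutamate from 2-oxoglutarate, read 7.51, 6.10, 5.87 and 6.27 on the WT arrays and 7.13 to 7.35 on the SPAK KO arrays. The difference was 0.78 ± 0.29 (SE; adjusted p = 0.182), and WT 1 lay above all SPAK KO arrays. Angptl4, a lipoprotein lipase inhibitor of the fasting list, read 8.85, 8.52, 8.57 and 7.34 on the WT arrays and 8.86 to 9.02 on the SPAK KO arrays (0.62 ± 0.26, adjusted p = 0.231), with WT 4 lowest. Slc25a22, a mitochondrial glutamate carrier, gave −0.27 ± 0.10 (SE, adjusted p = 0.177). Slc12a2, a cotransporter of sodium, potassium and chloride that can carry ammonium in place of potassium, gave −0.28 ± 0.07 (adjusted p = 0.0613). Slc12a1, of the same transport list, went the other way at 0.24 ± 0.05 (SE, adjusted p = 0.052), with all SPAK KO arrays above WT.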
